A study of Rattus norvegicus with 20 samples.

Results

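The 4 stathmins (Stmn1, Stmn2, Stmn3 and Stmn4) and 4 further genes of the neuronal growth cone (Gap43, Dcx, Crmp1 and Dpysl3) were followed through the olfactory and respiratory lining of the rat nose. The members are every probe set whose only annotated symbol is that of 1 of these 8 genes. They have 12 probe sets among the 31042 tested, and they are 8 of the 14217 genes named on the array. Stmn2, Gap43, Dcx and Dpysl3 have 2 probe sets each, and the other 4 genes have 1. Where a gene has several probe sets, the brightest on average stands for it.

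Each sample, RNA of the nasal lining of an adult Sprague-Dawley rat that had received no treatment and carried no genetic modification, was measured on 1 expression array. Cells were collected by hand from the septum and turbinates and kept in a preservative. Males gave 6 olfactory and 6 respiratory arrays, and females gave 2 olfactory and 6 respiratory arrays. By the numbers in the labels they came from 13 animals, and both tissues were taken from 7 of them, 5 males and 2 females. The series text speaks of 9 males and 9 females. Male olfactory and male respiratory arrays each came from 3 animals aged 11 weeks, 1 aged 13 weeks and 2 aged 14 weeks. The female olfactory animals were 13 and 14 weeks old, and the female respiratory animals were 11 weeks (1), 13 weeks (3) and 14 weeks (2). The array number limits the precision, and the female tissue comparison rests on 2 olfactory arrays. Tissue taken by hand holds every cell type of the lining, so fewer cells of a type and less RNA per cell cannot be told apart in any value below.

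Array medians lay between 133.5 and 192.5. A background for each array, the level that 95% of the 27 bacterial control probe sets did not exceed, lay between 28.2 and 64.9. RNA integrity numbers, which are higher for less degraded RNA, ran from 8.2 to 8.8 in male olfactory and from 9.1 to 9.3 in male respiratory arrays, and they were 8.3 on both female olfactory arrays against 8.7 to 9.3 on female respiratory arrays. The score therefore moved with the tissue and was not given for 3 arrays. Male respiratory 7 and female respiratory 8 stood apart from the other arrays on the second principal component. The label of the tissue held against Omp, the cytoplasmic marker protein of mature olfactory neurons. Its signals were 21368 to 26936 on the male olfactory arrays and 815 to 5359 on the male respiratory arrays. In females they were 25725 and 26058 on olfactory and 1424 to 9625 on respiratory arrays, a smaller separation by ratio than in males. Omp was thus above background on every respiratory array too.

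Olfactory neurons are replaced throughout life from basal cells of the olfactory epithelium, and each newly made neuron extends an axon to the olfactory bulb. The tip of a growing axon is the growth cone, where microtubules are assembled and taken apart as the axon advances and turns. Stathmins are phosphoproteins that bind tubulin dimers and favour microtubule disassembly. Gap43 is a membrane-bound substrate of protein kinase C, Dcx binds and stabilises microtubules in migrating and young neurons, and the collapsin response mediator proteins, to which Crmp1 and Dpysl3 belong, bind tubulin and act downstream of semaphorins. In this tissue Gap43 and Dcx are used as labels of immature olfactory neurons and Omp as a label of mature ones.

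RefSeq promoter windows (GRCr8) were found for 5 of the 8 genes. The 250 bases before the annotated start are printed for 3 genes that differ in their tissue change: Stmn1, which had the smallest change of the members called, Stmn3, which had the largest, and Dcx, whose window held motif matches. Each is written 5′ to 3′ on the gene's strand, and capitals mark motif matches.
Stmn1: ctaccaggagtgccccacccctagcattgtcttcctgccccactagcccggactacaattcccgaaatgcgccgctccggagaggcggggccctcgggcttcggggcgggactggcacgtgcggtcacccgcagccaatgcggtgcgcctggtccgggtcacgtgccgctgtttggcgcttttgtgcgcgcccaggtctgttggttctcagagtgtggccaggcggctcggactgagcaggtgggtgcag
Stmn3: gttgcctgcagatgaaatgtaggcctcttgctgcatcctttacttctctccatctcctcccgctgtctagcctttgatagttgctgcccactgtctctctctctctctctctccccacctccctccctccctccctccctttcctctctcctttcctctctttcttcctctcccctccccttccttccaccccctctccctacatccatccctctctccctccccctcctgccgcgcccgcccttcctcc
Dcx: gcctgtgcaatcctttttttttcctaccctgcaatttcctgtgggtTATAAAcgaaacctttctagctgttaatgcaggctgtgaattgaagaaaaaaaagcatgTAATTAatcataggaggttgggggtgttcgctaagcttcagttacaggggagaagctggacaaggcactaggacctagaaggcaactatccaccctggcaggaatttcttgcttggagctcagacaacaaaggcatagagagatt
The windows lie at chr5:151964929-151965178 on the plus strand, chr3:188802495-188802744 on the minus strand and chrX:112304162-112304411 on the minus strand. Their base composition differed: the Stmn1 window was 67.6% G and C with 22 CpG, the Stmn3 window 59.2% with 4, and the Dcx window 44% with 2. The median of 33469 promoters was 51.2% with 5 CpG. The motifs searched on both strands were the Olf/Ebf core (in 0.738% of all these promoters), the Lhx2 homeodomain core TAATTA (4.86%), the E-box CAGCTG (12%) and the TATA box TATAAA (12.9%). The Dcx window held TAATTA at positions -145 to -140 and TATAAA at -204 to -199, counted back from the start. The Stmn1 and Stmn3 windows held none of these letters. Of the windows not printed, one of Dpysl3 held CAGCTG at -221 to -216. A match is a description of the letters and not a site of binding.

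Stathmin messages were higher in olfactory than in respiratory epithelium of males for all 4 genes, by 2.29-fold for Stmn1, 8.1-fold for Stmn2, 14.6-fold for Stmn3 and 8.93-fold for Stmn4. Of the 8 members, 7 were called higher in male olfactory epithelium by limma at an adjusted p under 0.05, where 14% of all genes were. Dpysl3 was the member not called. The groups of male arrays did not overlap for 7 of 8 members, against 7.54% of genes that were higher without overlap.

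**Figure D1:**
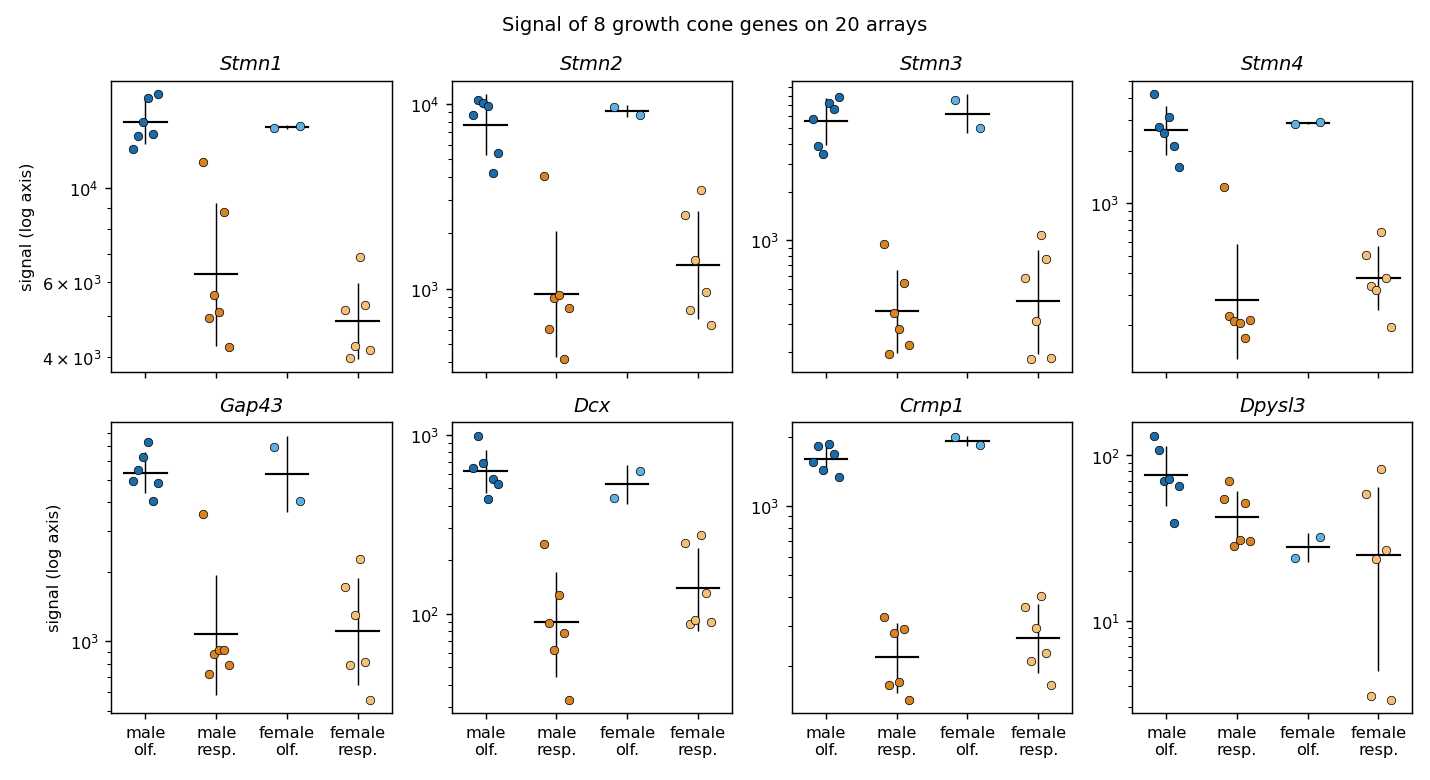
Signal of each member (log axis) on the 20 arrays, with points for arrays, a bar for the mean of log2(signal + 16) and a line for 1 SD. Olfactory arrays lie above respiratory arrays of the same sex for 7 members, and Dpysl3 overlaps.

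Stmn1, the founding stathmin and also present in dividing cells, had signals on male olfactory arrays from 12414 to 16686 with a median of 13900. On male respiratory arrays they ran from 4215 to 11526 with a median of 5335. The highest respiratory array, male respiratory 1, came close to the lowest olfactory array but stayed below it. The log2 means were 13.81 ± 0.17 (SD, n = 6) and 12.62 ± 0.56 (n = 6), and the difference was 1.19 (SE 0.21, limma adjusted p = 0.000181).

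Stmn2, also called SCG10, is anchored to membranes of neurons and concentrated in growth cones. Its representative probe set gave 4223 to 10511 on male olfactory arrays (median 9211) and 417 to 4062 on male respiratory arrays (median 835). Male respiratory 1, at 4062, lay just below male olfactory 7, at 4223, while the other male respiratory arrays did not exceed 926. The log2 difference was 3.02 (SE 0.44, limma adjusted p = 1.49e-05). The other probe set gave 3720 to 13392 against 518 to 3317 and a difference of 3.28 (SE 0.43).

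Stmn3, the stathmin also called SCLIP and found in neurons, ran from 3468 to 7878 on male olfactory arrays (median 6146) and from 196 to 944 on male respiratory arrays (median 316). Every olfactory value was above 3 times the highest respiratory one, and male respiratory 1 was again the highest of its group. The difference of 3.87 (SE 0.40, limma adjusted p = 1.81e-07) was the largest of the members. Stmn4, known as RB3, ran from 1625 to 4221 (median 2648) against 170 to 1239 (median 213). Without male respiratory 1 the respiratory values of Stmn4 reached 227 at most. Its difference was 3.16 (SE 0.37, limma adjusted p = 7.85e-07).

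Gap43 was 4.96-fold higher in male olfactory epithelium. Its signals were 4033 to 7253 (median 5212) on olfactory and 724 to 3553 (median 896) on respiratory arrays, and the difference was 2.31 (SE 0.34, limma adjusted p = 2.02e-05). Male respiratory 1 lay at 3553, the other respiratory arrays at 915 or less. The second Gap43 probe set stayed between 0.38 and 46.6 over all 20 arrays, near or under the arrays' background.

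Dcx was 6.04-fold higher in male olfactory epithelium, with 436 to 986 (median 608) against 32.8 to 243 (median 83.1). The groups did not overlap, although some respiratory values were near background. The difference was 2.59 (SE 0.35, limma adjusted p = 4.83e-06). The other Dcx probe set lay between 1.56 and 42.5 on all arrays.

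Crmp1 varied little within a group: its signals were 1339 to 1869 (median 1615) on male olfactory arrays against 142 to 326 (median 225) on male respiratory arrays. It was 6.93-fold higher in olfactory epithelium, a difference of 2.79 (SE 0.22, limma adjusted p = 7.07e-09). Its SD was 0.19 (n = 6) in olfactory and 0.48 (n = 6) in respiratory epithelium.

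Dpysl3, a family member of Crmp1, was near background. Its signals were 39 to 132 (median 71.1) on male olfactory arrays and 28.3 to 70 (median 41.1) on male respiratory arrays, so the groups overlapped. It was above background on 6 of 6 male olfactory and 2 of 6 male respiratory arrays. The difference was 0.66 (SE 0.37, limma adjusted p = 0.204, 95% interval -0.09 to 1.42), so no difference was called, and the interval still allows more than 1 log2 unit. Of its 2 probe sets the other lay between 7.45 and 76.8 over all arrays.

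**Figure D2:**
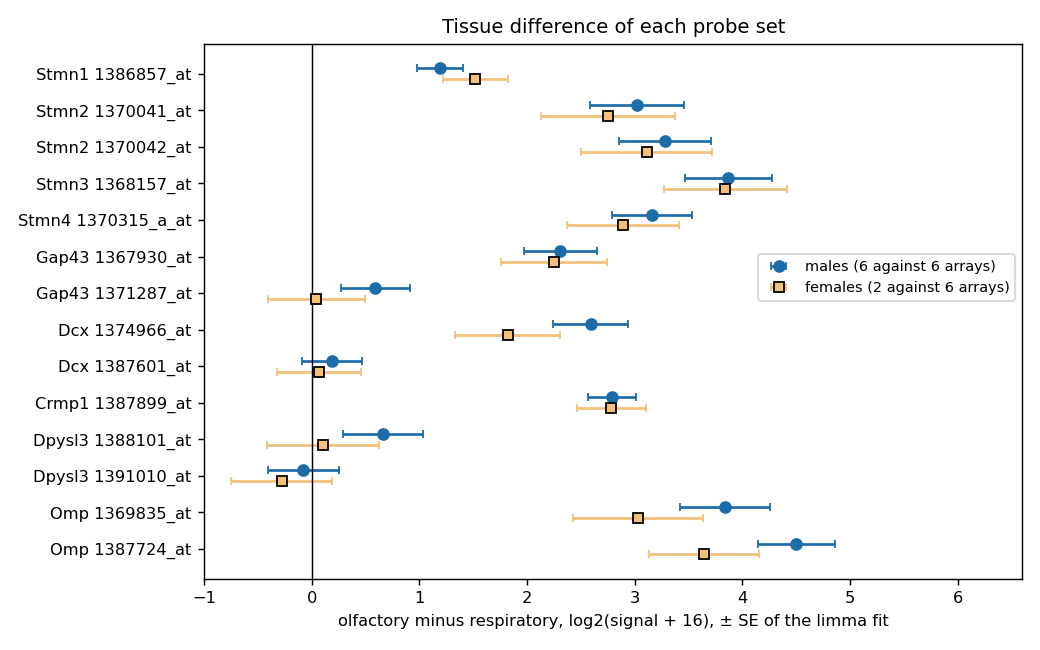
Olfactory minus respiratory difference on the log2(signal + 16) scale for every member probe set and both Omp probe sets, in males (circles, 6 against 6 arrays) and females (squares, 2 against 6), with SE of the limma fit. The largest member difference is that of Stmn3, 3.87 in males and 3.84 in females, and Dpysl3 lies near 0 in females.

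In females 7 of the 8 members were called higher in olfactory epithelium, where 10.9% of all genes were. The groups did not overlap for 7 members, against 18.8% of genes, and the small number of olfactory arrays makes that share large. Stmn1 had signals of 13867 and 14055 on the female olfactory arrays against 3979 to 6864 on the respiratory ones. Stmn2 had 8658 and 9623 against 639 to 3432, and Stmn3 had 5060 and 7518 against 182 to 1073. Each olfactory value was above every respiratory value of its gene. Stmn4 had 2851 and 2909 against 195 to 681, Gap43 had 4053 and 6946 against 555 to 2269, Dcx had 440 and 629 against 87.9 to 275, and Crmp1 had 1846 and 1994 against 165 to 405. The log2 differences were 1.52 for Stmn1, 2.75 for Stmn2, 3.84 for Stmn3, 2.89 for Stmn4, 2.25 for Gap43, 1.82 for Dcx and 2.78 for Crmp1. Dpysl3 differed by 0.10 (limma adjusted p = 0.924, 95% interval -0.97 to 1.17).

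Leaving out either female olfactory array leaves 1 array in that group, and fewer of all probe sets were then called as well. Without female olfactory 6 the differences were 2.68 for Stmn2, 1.86 for Gap43 and 2.07 for Dcx, and these calls were lost. Without female olfactory 8 the difference of Dcx was 1.57, and its call was lost. Dcx was also lost with the integrity number in the model (1.87, limma adjusted p = 0.124), where the difference was about as large as before. With the mean of its 2 probe sets, of which the other lay near or under background, the Dcx difference was 0.94 (adjusted p = 0.0624). In males 7 members were called under every alternative run, the integrity covariate included, where the differences of the called members were 1.29 to 3.29.

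No member was called between the sexes by limma, in either tissue. Female minus male differences ran from -0.51 to 0.54 in respiratory epithelium, where 0.0141% of genes were called, and from -1.08 to 0.25 in olfactory epithelium, where 0.0211% were. The difference between the female and the male tissue change ran from -0.78 to 0.33 over the members, and again 0 of 8 were called, where 0% of genes were. Over all 31042 probe sets limma called 0 for that difference, with 1516 at an unadjusted p under 0.05. At an unadjusted p under 0.05 the members gave 0 in respiratory epithelium, 1 (Dpysl3) in olfactory epithelium and 0 for the difference of tissue changes. The 95% intervals were wide: for Stmn2 the difference of tissue changes lay between -1.84 and 1.31, and for Dcx between -2.02 and 0.46. Sex and tissue contrasts share arrays. Ages also differed between the sexes, since no female olfactory array came from an animal aged 11 weeks, and age was not in these fits.

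On the male arrays the members changed by unequal amounts when set against Omp within each array, which removes the array's scaling. A negative value means that a member's olfactory excess was smaller than that of Omp. This comparison was not run in females. There the limma tissue difference was 3.03 for Omp (3.64 by its other probe set) and 3.84 for Stmn3. For Stmn4, Crmp1 and Stmn2 it was 2.89, 2.78 and 2.75, and for Gap43, Dcx and Stmn1 it was 2.25, 1.82 and 1.52. In males the excess fell short of that of Omp by 2.65 on the log2 scale for Stmn1 (olfactory minus respiratory -2.65, exact permutation p = 0.00216, adjusted 0.00649), the smallest p that 6 against 6 arrays allow. For Gap43 the value was -1.53 (adjusted p = 0.00649, exact permutation test). Dcx gave -1.25 and Crmp1 -1.05, each with an adjusted p of 0.0216 by the exact permutation test. Stmn2 (-0.82, adjusted p = 0.142), Stmn4 (-0.68, adjusted p = 0.142) and Stmn3 (0.03, unadjusted p = 0.976) were not called by the exact permutation test. These p are two-sided and adjusted over 15 comparisons. The 2 of them that use Dpysl3 are not read, since it was at or under background on 4 of 6 male respiratory arrays and its change is bounded by that floor. Adjusted over the other 13 comparisons, an alternative chosen after seeing the data, 4 of 7 members passed.

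**Figure D3:**
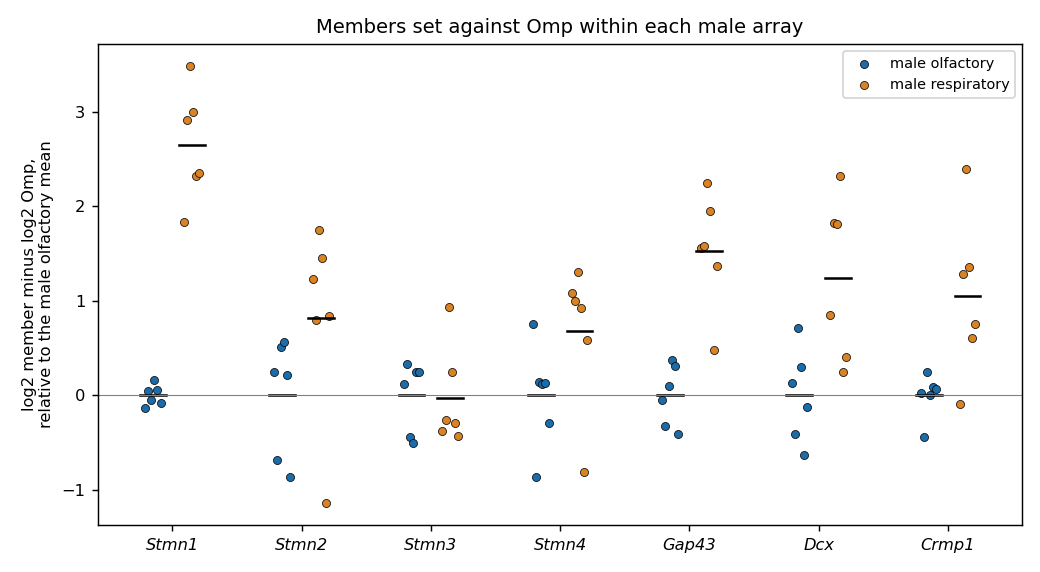
Log2 signal of 7 members (Dpysl3, near background, is left out) minus that of Omp within each male array, shifted so that the male olfactory mean is 0, with bars for group means. The male respiratory mean for Stmn1 lies higher by 2.65, and the groups overlap for Stmn3.

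The choice of Omp probe set changed this: with the other Omp probe set 7 of 7 members passed and Stmn3 gave -0.63. Leaving out male olfactory 4, male olfactory 7 or male olfactory 10 left 2 of 7, and leaving out male respiratory 7 gave 6 of 7. With a pseudocount of 1, Dcx did not pass (adjusted p = 0.0844, exact permutation test). Pairing the 5 males with both tissues by sign flips cannot give a p under 0.0625, and 0 of 7 members passed.

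Among the stathmins Stmn1 changed less than the other 3: by -1.82 against Stmn2 (adjusted p = 0.0139, exact permutation test), -2.68 against Stmn3 (0.00649) and -1.96 against Stmn4 (0.0108). Stmn2 and Stmn3 differed by -0.85 (adjusted p = 0.142, exact permutation test), Stmn2 and Stmn4 by -0.14 (0.571) and Stmn3 and Stmn4 by 0.71 (0.142), none of them called. So 3 of 6 stathmin pairs passed, 5 of 6 without male respiratory 7, and 0 of 6 in the paired sign-flip test.

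Member signals differed among the 12 respiratory arrays, and so did Omp, from 815 to 9625. On log2 values Pearson's r with Omp was 0.79 for Gap43, 0.77 for Crmp1, 0.76 for Dcx, 0.75 for Stmn2 and 0.73 for both Stmn3 and Stmn4. These 6 passed a permutation test adjusted over 8 members, with adjusted p from 0.0105 to 0.0118. Stmn1 (r = 0.49, adjusted p = 0.118) and Dpysl3 (r = 0.45, adjusted p = 0.142) did not pass the permutation test over both sexes together. Spearman's rho was lower for most of them: 0.77 for Crmp1, 0.69 for Dcx, 0.66 for Gap43, 0.59 for Stmn3, 0.57 for Stmn4, 0.55 for Stmn2, 0.34 for Stmn1 and 0.31 for Dpysl3, and Crmp1 alone passed after adjustment (permutation p adjusted 0.0402).

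Without the 2 arrays farthest from the Omp median, female respiratory 7 and female respiratory 3, r was 0.69 for Gap43 and 0.63 for Stmn4 (permutation p = 0.0228 and 0.0458, unadjusted), and 0.53 to 0.59 for Stmn1, Stmn2, Stmn3, Dcx and Crmp1. It was 0.13 for Dpysl3. With those 2 arrays left out, r stayed positive for Stmn2, Stmn3, Dcx and Crmp1 but no longer passed at 10 arrays (permutation p = 0.0753 to 0.114, unadjusted). The p of these 10 arrays were not adjusted over the members, so Gap43 and Stmn4 are not read as passing there either. Without female respiratory 7 alone, Stmn3 was lost (r = 0.62, permutation p adjusted 0.0641). Within 6 male respiratory arrays r ran from 0.47 to 0.90 and no member passed the adjusted exact permutation test. Spearman's rho on these male arrays was lower for most members, from -0.03 for Stmn2 to 0.54 for Gap43. On the female respiratory arrays rho ran from 0.54 for Stmn4 to 0.83 for Gap43. Within 6 female arrays r ran from 0.68 to 0.96, and Stmn2, Gap43, Dcx and Crmp1 had an adjusted p of 0.0444 by the exact permutation test. For Stmn1 r was 0.90 in males and 0.77 in females (adjusted p = 0.133 and 0.0889, exact permutation test), against 0.49 over both sexes. Its rho was 0.43 and 0.66. Female minus male, respiratory Stmn1 differed by -0.36 and Omp by 0.93, neither called by limma, and their part in the lower joint r was not tested. Dpysl3, above background on 2 of 6 female and 2 of 6 male respiratory arrays, is not read here. How much neuronal tissue was taken with a respiratory sample was not measured, and its part in these values was not tested.

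**Figure D4:**
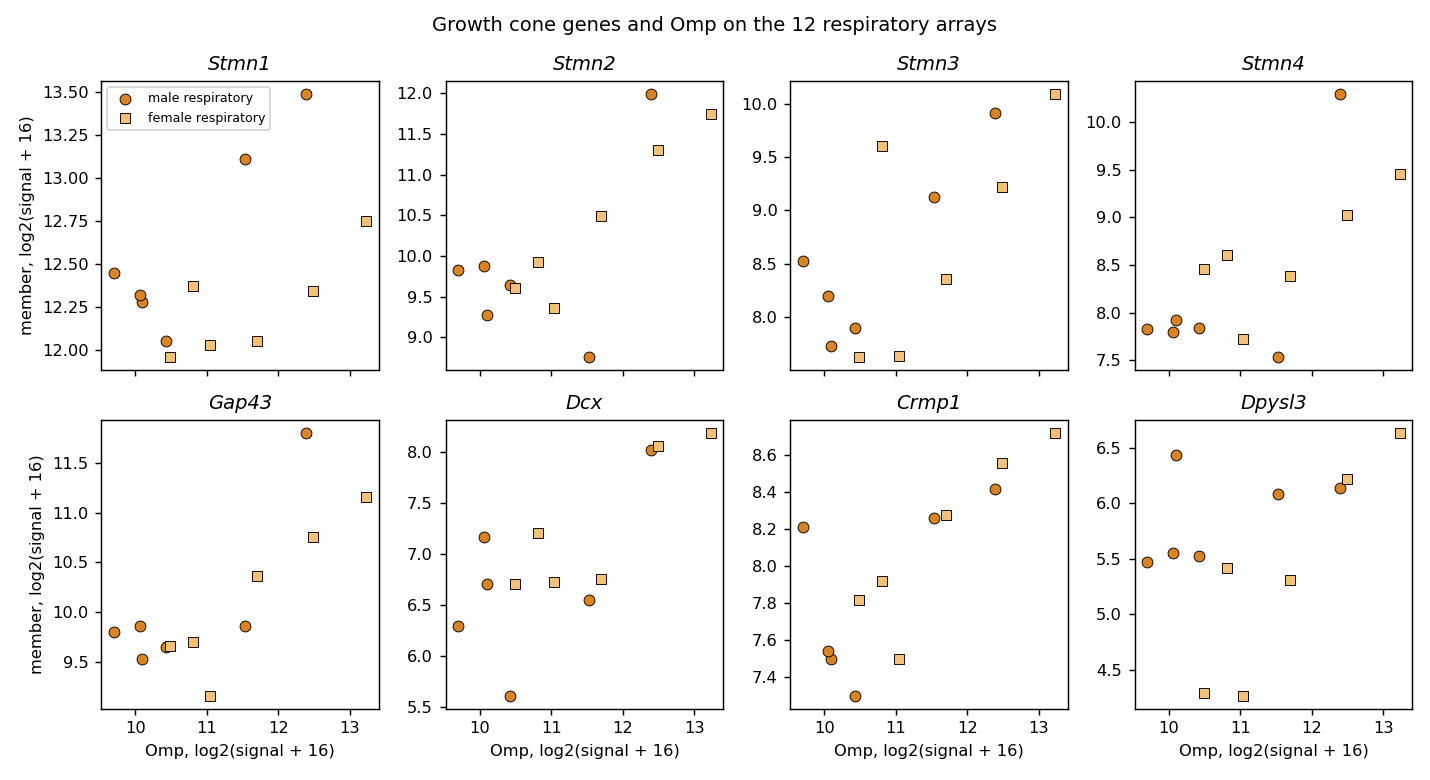
Member against Omp on the 12 respiratory arrays, both as log2(signal + 16), with circles for males and squares for females. Gap43 (r = 0.79) and Crmp1 (r = 0.77) rise with Omp, and Dpysl3 (r = 0.45) scatters.

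The 2 probe sets of Stmn2 did not keep 1 ratio over the arrays. The signal of the representative probe set over that of the other was 0.406 on male olfactory 10, 0.479 on female respiratory 8 and 0.684 on male respiratory 7, all from animals aged 14 weeks. On female olfactory 6 it was 0.862 and on male respiratory 2 it was 0.993. On the other 15 arrays it lay between 1.01 and 1.99, the other 4 arrays at 14 weeks included. The olfactory arrays of the animals numbered female 8 and male 7 both gave 1.14. The same 3 low arrays had the lowest values on the second principal component (-68.1, -113.3 and -97.5), and their part in this ratio was not tested.

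**Figure D5:**
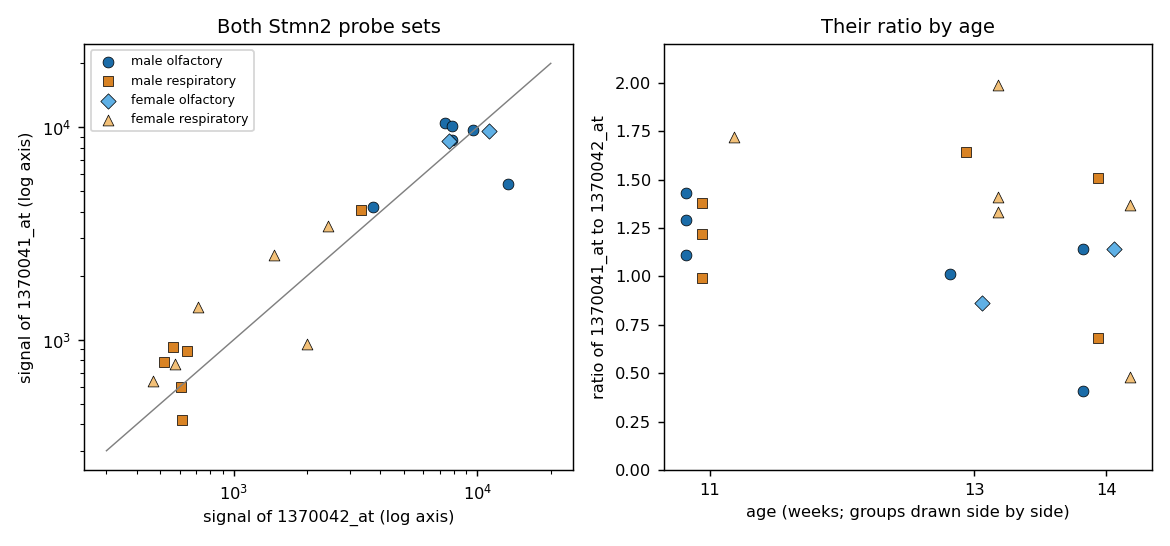
Signals of the representative (vertical axis) and the other Stmn2 probe set on log axes with the line of equal signal (left), and their ratio by age in weeks with groups drawn side by side (right). The 3 lowest ratios, 0.406, 0.479 and 0.684, are at 14 weeks, where other arrays lie between 1.14 and 1.51.

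With age as a covariate beside the group means, 0 of 8 members had a slope called by limma, where 0% of genes were called. Of the 8 slopes 7 were negative, where 48.9% of all genes had a negative slope, and the median was -0.22 per week, against 0 for all genes. Members moved together within groups (r up to 0.92), so these slopes are not separate observations. Stmn2 had a slope of -0.38 log2 units per week (SE 0.12, adjusted p = 0.0798) and Stmn4 -0.28 (SE 0.10, adjusted p = 0.117). Gap43 had -0.22 and Dcx -0.24. At an unadjusted limma p under 0.05 these 4 of 8 were lower with age, where 14.7% of genes were. On male olfactory arrays Stmn2 read 8706, 10511 and 10118 at 11 weeks, 9716 at 13 weeks, and 4223 and 5431 at 14 weeks. Not all readings were lower at 14 weeks: female olfactory 8 read 8658, and the other Stmn2 probe set read 13392 on male olfactory 10, the highest of its group. That probe set had a slope of -0.18, which limma did not call. Without male respiratory 1 the slopes were -0.28 for Stmn2, -0.17 for Stmn4, -0.13 for Gap43 and -0.18 for Dcx. Without male respiratory 8, Stmn2 was called (limma adjusted p = 0.0394), where 3887 of all 31042 probe sets were called, against 1 in the main fit. Stmn2 was also called with a random replicate block for the animal (0.0484), where 1956 probe sets were. The consensus correlation within animals in that fit was negative (-0.137).

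The members most alike in how they left their group means over the 20 arrays were Stmn2 and Gap43 (r = 0.92), Stmn2 and Stmn4 (0.88) and Stmn4 and Gap43 (0.84), followed by Stmn1 and Stmn3 (0.83). Stmn2 and Stmn3 gave 0.53, and the lowest was Stmn1 with Dpysl3 at 0.42. All these correlations share the same 20 arrays and are given as a description. Outside the members, over 14209 genes, the closest to Stmn1 were Atf5 (0.88), Tubb3 (0.88), the neuronal beta tubulin, and Tubb2b (0.87). The closest to Stmn2 were Cnga2 (0.95), a subunit of the olfactory transduction channel, Elavl4 (0.94), a neuronal RNA-binding protein, and Lhx2 (0.92), a homeodomain factor. Stmn3 was closest to Nrn1l (0.94), Atf5 (0.94) and Ptp4a3 (0.93), and Stmn4 to Sox11 (0.86), Emx2 (0.85) and Elavl4 (0.85). Gap43 was closest to Elavl4 (0.89), Slc27a2 (0.88) and Lhx2 (0.87). Dcx was closest to Plcxd3 (0.89), Sox11 (0.85) and Nol4l (0.84), and Crmp1 to Uchl1 (0.93), a ubiquitin hydrolase of neurons, Rd3 (0.89) and Ppp1r1a (0.89). Dpysl3 was closest to Pik3ip1 (0.82), Atxn2l (0.77) and Kif5a (0.75). It was above background on 10 of the 20 arrays, so its correlations here, 0.42 with Stmn1 included, are limited by that floor.

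Relatives of the members and other genes of the growth cone were also higher in male olfactory epithelium, in part. Of 10 measured relatives 8 were called higher and 2 lower by limma, with a median of 1.0 against -0.05 for all genes, of which 14% were called higher and 17.8% lower. Dclk3 (3.83), Dpysl5 (2.56), a collapsin response mediator protein, and Marcksl1 (1.23), an actin-binding substrate of protein kinase C, were higher, and Nrgn (-1.12) and Dpysl4 (-0.85) lower. Of 22 tubulins and microtubule proteins 15 were higher and 1 lower (median 1.14): Tubb3 (2.78), the motor subunit Kif3c (2.69) and Tubb2b (2.10) were higher, and Tubb6 (-2.76) lower. Of 26 genes of growth cone actin and signalling 12 were higher and 6 lower (median 0.42), with the kinase Pak3 (2.92), Rtn1 (2.38) and Rufy3 (2.19) higher and Ablim1 (-1.24), the kinase Gsk3b (-1.0) and Enah (-0.83) lower.

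Of 33 genes of axon guidance and adhesion 18 were higher and 3 lower (median 0.82). Cntn4 (3.75) and Ncam2 (3.18), adhesion molecules, and the semaphorin receptor Plxna3 (2.29) were higher, and Chl1 (-1.92), Sema3c (-1.81) and Sema3f (-0.68) lower. Of 20 genes of olfactory progenitors and immature neurons 14 were higher and 2 lower (median 1.93), with Lhx2 (2.92), Elavl2 (2.67) and Ebf1 (2.60) higher and Kit (-1.50) and Sox2 (-0.47) lower. Of 15 mature neuron genes 14 were higher and 0 lower (median 3.75), led by Gng13 (4.61), a G protein subunit, Faim2 (4.32) and Ano2 (4.30), the olfactory chloride channel. Their summed signal was 94713 to 107017 on male olfactory and 4398 to 19600 on male respiratory arrays. The members' summed signal was 32669 to 45944 against 6423 to 21946. Neuroendocrine genes were higher for 5 of 6 (median 2.54), led by Chga (4.34), Resp18 (3.62) and Syp (2.63), which neurons also express.

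Markers of other cells moved with the tissue as well. Glial genes were higher for 5 of 10, led by Fabp7 (3.39), Gfap (2.93) and S100b (2.02), and lower for Mbp (-1.86) and Prx (-1.29), genes of myelinating glia, with summed signals of 9375 to 23817 on male olfactory against 4470 to 7489 on male respiratory arrays. Fibroblast genes were lower for 6 of 9, led by the collagen gene Col3a1 (-1.60), Dcn (-1.37) and Lum (-1.27). Leukocyte genes were lower for 5 of 5, led by Ptprc (-2.94), Cd74 (-2.91) and Cd3e (-2.26). Basal and mucous cell genes were lower for 5 of 7, led by the mucin Muc5ac (-5.74) and the keratins Krt15 (-4.24) and Krt5 (-1.93). Of 6 endothelial genes Cldn5 (2.03) was higher and 4 were lower, led by Pecam1 (-2.28), Tek (-1.49) and Kdr (-1.39). Genes of dividing cells, which also use Stmn1, were lower for 1 (Aurkb, -2.52) and not called for 12 of 13, with summed signals of 7922 to 15818 against 9486 to 14521. Muscle genes were called for 0 of 8, and ciliated cell genes were lower for 1 of 4 (Dnai1, -1.04). The part of these cells in the members' differences was not tested.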

How the data were processed

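RNA of 20 samples was measured on rat genome arrays, and the deposited values are linear intensity signals, 1 for each probe set. GCOS 1.0 is named in the submitters' processing notes. Its algorithm and scaling target were not given in the sources used here. Per the deposited values, the trimmed mean of every array lay between 500.1 and 500.3, so the authors' scaling was kept. Of 31099 probe sets 57 controls were left out. The annotation pairs 20826 with 1 symbol, 436 with several, and 9780 are unnamed here.

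After addition of 16 and log2, 4 group means were fitted over all arrays with limma 3.58.1 in R 4.3.3, with variances that follow intensity, and p-values were adjusted by Benjamini-Hochberg over 31042 probe sets. Changes are on that log2(signal + 16) scale, which understates changes of low genes, and fold is 2 to that power. Within-array differences were tested by exact permutation and correlations by permutation with 100000 resamples. Replicates are separate animals by their numbers. Only the limma fit of the male tissue difference was tested on simulated data. There 4% of true changes of 0.5 log2 units were called, 28% of those of 1 unit and 90% of those of 2. Only 50 probe sets of each size changed in the simulation, where 7824 were called in the data. Adjustment is stricter with so few changes, so these shares need not hold for the real male contrast.

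The pairing comes from the animal numbers in the labels. Deviations of both arrays of an animal correlated by -0.18 to 0.25, and the consensus correlation was 0.039, or -0.137 in the fit with age.

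The members and gene lists were chosen with earlier results of these data known. The text names all members, Omp, up to 3 called genes per direction with the largest change in each gene list, and the 3 genes most like each member. Alternatives covered pseudocount, quantile normalization, background filter, intensity trend, left-out arrays, animal block, age, integrity number and probe set choice.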

Additional observations from a re-analysis of the deposited data

Results flagged for a closer look

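Of 36 groups of 6 arrays checked for a value far from the others, 5 were picked out, and chance alone picks about 1 in 20. The checks share arrays and include 2 probe sets of the same gene, so the 5 are not separate events. Male respiratory 1 lay far above the other male respiratory arrays on the log2(signal + 16) scale for 4 probe sets. It read 11.99 for the representative probe set of Stmn2, where the next highest array read 9.88, and 11.70 for the other, where the next read 9.36. It read 10.29 for Stmn4, against 7.92 for the next array, and 11.80 for Gap43, against 9.86. The same array also had the highest Omp signal of the male respiratory arrays, 5359, and the part of Omp in these values was not tested. Without it the male tissue difference was 3.44 for Stmn2, 3.58 for Stmn4 and 2.65 for Gap43, and all 3 stayed called by limma. Male respiratory 2 read 5.27 for the second Gap43 probe set against 4.33 for the next array, a signal of 22.6 that lies under that array's background of 58.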

How the results depend on the processing

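In males 7 members were called under every alternative run. In females 7 stayed called whichever respiratory array was left out. Fewer were called without either olfactory array, which leaves 1 in that group. With age, left-out arrays gave 0 to 1 called members and the animal as a random replicate block gave 1. The next counts include Dpysl3, which the report does not read: against Omp 5 of 8 passed, and the replicate block (sign flips) gave 0, the other Omp probe set 8 and left-out arrays 3 to 7. Between members the replicate block gave 0 and left-out arrays 4 to 6. For the relation with Omp left-out arrays gave 5 (without female respiratory 7) to 7 (without male respiratory 2). The block changed no other call of a member. The direction turned for values near 0: Dpysl3 in females (-0.02 with pseudocount 64, -0.35 with the integrity number, -0.09 with the mean of its probe sets, -0.12 to 0.35 with left-out arrays), the age slope of Stmn3 (0 with quantile normalization, -0.07 without the 2 arrays that stand apart, -0.13 without these and male olfactory 10, -0.03 to 0.10 with left-out arrays) and of Stmn1 (-0.05 to 0.04 with left-out arrays). Stmn3 against Omp gave -0.10 with pseudocount 64, -0.11 with quantile normalization, -0.12 with the block, -0.63 with the other Omp probe set and -0.05 to 0.22 with left-out arrays, and Stmn2 against Stmn4 gave 0 with pseudocount 64. The cause was not tested. Single members between the sexes were not called under any alternative, and after their values were seen they were kept as counts only: the sign changed in 6 of 144 values in respiratory epithelium, 6 of 104 in olfactory epithelium and 29 of 216 for the difference of tissue changes.

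Of all probe sets, 7824 were called between male tissues, against 2347 with the integrity number, which leaves out 3 arrays. In females 5571 were called, against 2228 with the animal as a fixed block, 1133 with the integrity number and 8484 without the 2 arrays that stand apart. With age 1 probe set was called, against 188 with the background filter, 5 with quantile normalization, 1956 with the random block and 3887 without male respiratory 8. Leaving out those 2 arrays, the other Omp probe set and leave-one-out for the Omp relation were chosen after seeing the data. Dcx and Dpysl3 lay near background on respiratory arrays, which limits their fold.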
